A study of Mus musculus with 6 samples.

Results

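The extracellular matrix and matrix protease genes of the arcuate nucleus (ARC) were chosen by name from the deposited gene table. A gene was a member when its Ensembl identifier maps to a collagen chain symbol (Col, a number, the letter a and a number), to a symbol made of Mmp, Hapln, Timp, Adamts or Adamtsl and a digit, or to *Has1*, *Has2*, *Has3*, *Tnr*, *Vcan*, *Ncan*, *Bcan* or *Acan*. The rule used no measured value, but it was chosen with earlier results of these data known. It gave 107 of the 22322 genes in the table. The 12 genes of perineuronal nets among them (*Acan*, *Bcan*, *Ncan*, *Vcan*, *Tnr*, 4 *Hapln* genes and 3 hyaluronan synthases) were described apart from the rest.

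The RNA came from ARC tissue of male mice, cut from frozen brain sections by laser capture microdissection (LCM), and was measured by RNA-seq of poly(A) RNA. The mice entered the diets at 4 weeks of age and were kept on normal-chow diet (NCD) or high-fat diet (HFD, 60% fat) for 16 weeks, which makes the HFD mice a model of diet-induced obesity (DIO). Each diet had 3 samples, which are called NCD1, NCD2 and NCD3 or HFD1, HFD2 and HFD3. The labels give the sex and no strain or genotype, and the study's methods name C57BL/6J mice as its wild type. The study made Kiss1 neurons visible in offspring of Kiss1-Cre and R26R-EYFP mice. The labels do not say whether the sequenced mice carried these alleles. The cut area was the place where a reporter of Kiss1 neurons is seen, so every sample held the neurons, glia, vessels and any membrane in that area. Neither the labels nor the methods say whether a sample was 1 mouse or several, and p-values here measure the spread between these samples. In such bulk tissue, fewer cells of a type and less RNA per cell cannot be told apart.

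Matrix in the brain has no dense collagen scaffold between its cells. It is built on hyaluronan chains made at the cell surface, to which the lecticans (aggrecan, brevican, neurocan and versican) bind with the help of link proteins of the Hapln family, and tenascin-R joins the lecticans to each other. Condensed around a neuron, this matrix forms a perineuronal net, and nets are known around arcuate neurons near the median eminence. Collagens lie mainly in the basement membranes of vessels and in the meninges. Adamts proteases and matrix metalloproteinases cut these components, and the tissue inhibitors of metalloproteinases (Timp) block the proteases.

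The total count per sample was 15925648, 9937632 and 6882449 for NCD1 to NCD3 and 8024664, 10479778 and 5171381 for HFD1 to HFD3. HFD3 was the shallowest library, and 3 counts, the smallest amount taken as detectable, stood for 0.580 CPM there (CPM are counts relative to the total of their library) and for 0.188 CPM in NCD1. The members took 0.241%, 0.175% and 0.159% of all counts in NCD1 to NCD3 and 0.198%, 0.152% and 0.206% in HFD1 to HFD3, so the shares of the diets overlapped. Of the 107 members, 73 passed edgeR's filter on low counts and were tested, 34 did not pass, and 8 of those 34 had no count in any sample. The labelled tissue was checked against 8 genes of arcuate neurons. *Agrp*, *Npy*, *Pomc*, *Tac2*, *Pdyn*, *Ghrh* and *Cartpt* had counts in every sample. *Kiss1* had 0, 27 and 32 counts in NCD1 to NCD3 and 0, 21 and 42 in HFD1 to HFD3, so it was not detected in NCD1 (up to 0.188 CPM allowed by 0 counts) or HFD1 (up to 0.374 CPM).

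HFD3 stood apart from the other libraries in the genes described here. Among the 73 members tested, HFD3 held the highest normalized level for 34, and among all 14188 genes tested it did so for 3546 (25.0%). The 10 markers of fibroblasts and meninges, all of them tested, had a summed level of 200, 162 and 147 CPM in NCD1 to NCD3 and of 131, 98.9 and 270 CPM in HFD1 to HFD3, and *Igf2* was the most abundant of them. None of these markers was at 0 in any sample. HFD3 was thus the highest and HFD2 the lowest for these markers, and *Col23a1*, *Col27a1*, *Itga9* and the collagen median, which rest on HFD3, are given without it below.

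Levels of different genes are compared here per transcript length, in FPKM (fragments relative to transcript length and to the mapped reads of the sample). The mean FPKM over the 6 samples was at least 1 for 47 members and at least 10 for 8. *Timp2*, an inhibitor that blocks metalloproteinases and takes part in activating pro-Mmp2, was the most abundant at 159 FPKM and alone held from 25.2% to 38.2% of the members' counts in a sample. It was followed by the inhibitor *Timp3* (51.2 FPKM), the lectican *Bcan* (48.5 FPKM), the link protein *Hapln4* (20.9 FPKM), *Timp4* (19.8 FPKM), the transmembrane collagen *Col25a1* (15.2 FPKM), the membrane-type metalloproteinase *Mmp16* (11.6 FPKM) and the transmembrane collagen *Col23a1* (10.04 FPKM). The highest members were therefore inhibitors, net components and membrane-bound proteins, and the chains of fibrillar collagen reached at most 3.02 FPKM (*Col1a2*).

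**Figure D1:**
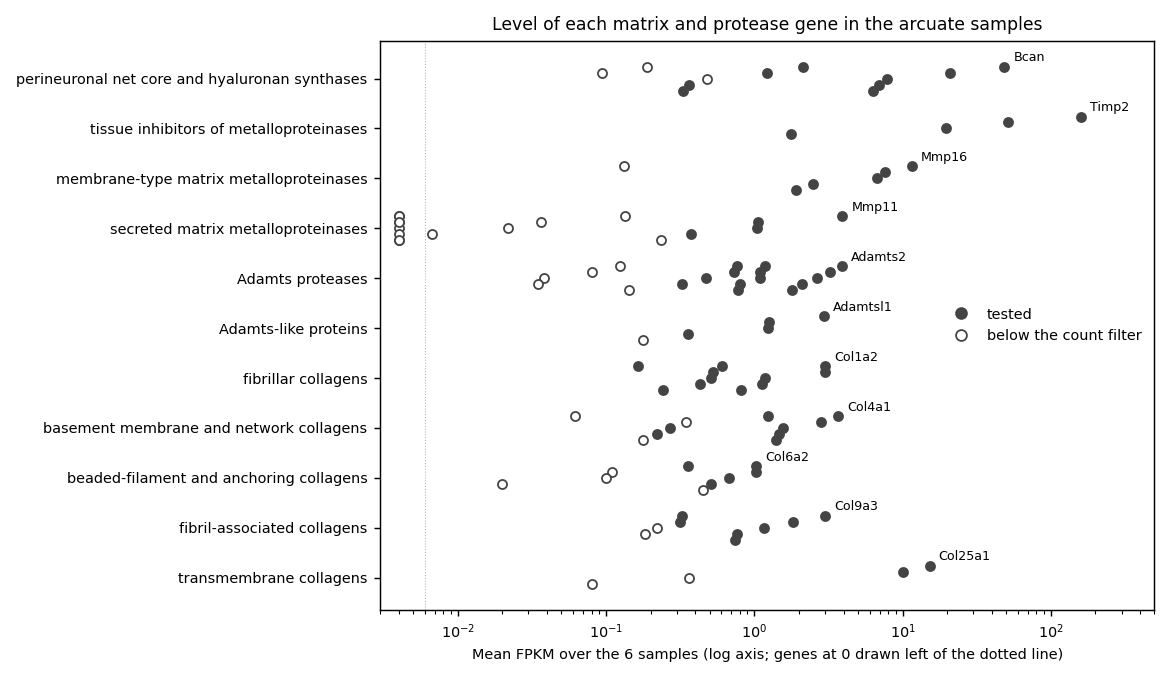
Mean FPKM of each of the 107 genes over the 6 samples on a log axis, by role; filled points were tested, open points fell below the count filter, and genes at 0 stand left of the dotted line. The most abundant gene of each role is named, from *Timp2* at 159 FPKM down to *Col6a2* at 1.03 FPKM.

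The comparison of HFD with NCD asked which of these genes differ in the ARC of obese mice. No member passed an adjusted p of 0.05 in edgeR's quasi-likelihood test with Benjamini-Hochberg adjustment over all genes tested, against 0.0564% of all genes (8 of 14188). Before adjustment 4 of the 73 members had a p under 0.05 (2.3% of all genes did), and DESeq2 called 1 member, *Adamts1*, after adjustment. In edgeR the same 4 members passed the threshold stated in the study's methods, a p under 0.05 together with a change above 1.5-fold. The members were *Adamts1*, *Adamts4* and *Mmp14* on the lower side in HFD and *Col23a1* on the higher side. They made up 5.48% of the members tested against 1.9% of all genes, with 1 member higher against 1.01% of all genes and 3 lower against 0.888%. The study applied its threshold in DESeq2, and its own list also holds *Col17a1*, which was below the count filter here. Leaving out each sample in turn gave from 3 members past that threshold (without NCD1, NCD2 or HFD1) to 7 (without HFD2). The samples of the diets did not overlap for 5 members (6.85%), against 6.47% of all genes, so this share lay near the background. In 1 of them (*Col8a1*) HFD was above and in 4 (*Adamts1*, *Adamts4*, *Adamts9* and *Mmp14*) below, against 3.24% of all genes in each direction. The median log2 fold change of the 73 members was 0.04, with 40 higher and 33 lower in HFD, beside a median of 0.00 for all genes tested.

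**Figure D2:**
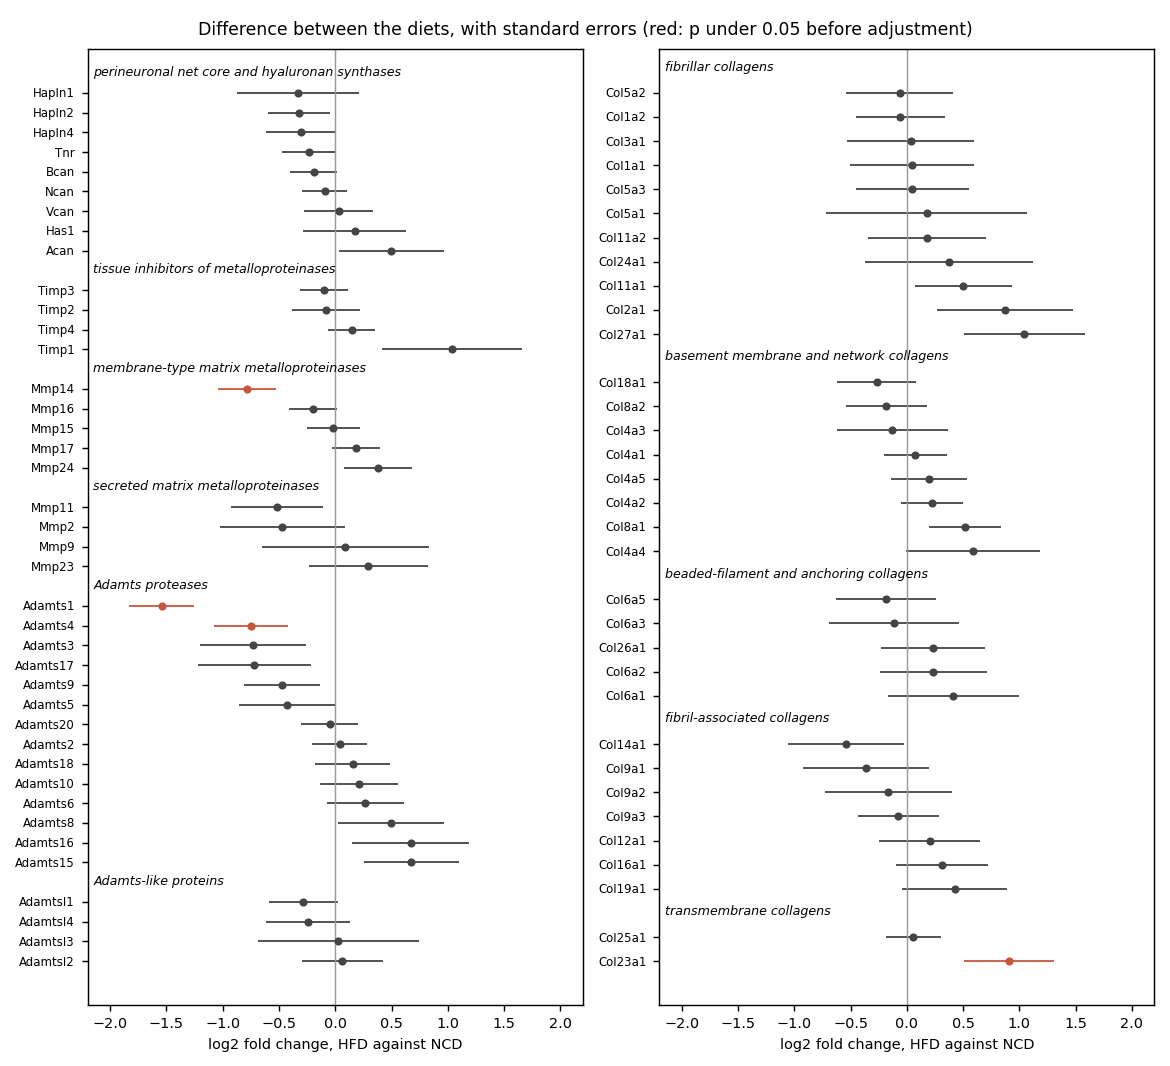
Log2 fold change of HFD against NCD for each of the 73 tested members by role, from edgeR, with its standard error as a bar. The 4 members in red had a p under 0.05 before adjustment, and none passed after it.

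None of the 9 tested perineuronal net genes had a p under 0.05. Their median log2 fold change was -0.19, with 6 lower and 3 higher in HFD. *Bcan*, the most abundant lectican, was at 185, 178 and 125 CPM in NCD1 to NCD3 and at 149, 138 and 139 CPM in HFD1 to HFD3, where CPM are normalized with edgeR's TMM factors here and below. NCD3 was the lowest of all 6 for *Bcan* and the diets overlapped (log2 fold change -0.19, standard error 0.21).

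*Ncan*, the neurocan gene, had 50.2, 63.7 and 62.6 CPM in NCD1 to NCD3 and 48.6, 52.7 and 64.0 CPM in HFD1 to HFD3 (log2 fold change -0.10, standard error 0.20). *Tnr*, which encodes tenascin-R and is made largely by oligodendrocytes and some neurons, had 59.7, 75.0 and 90.1 CPM and 62.0, 48.7 and 80.2 CPM in the same order (log2 fold change -0.24, standard error 0.23). *Vcan*, the versican gene, had 12.6, 10.6 and 21.8 CPM and 12.3, 15.0 and 18.4 CPM (log2 fold change 0.03, standard error 0.30). Samples of the diets were interleaved for all 3 genes. For *Vcan* the deposited FPKM did not follow the order of the counts, with NCD1 the highest by FPKM (3.22) and NCD3 the highest by CPM.

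*Acan*, which encodes aggrecan, the lectican of dense nets, was among the lowest net genes at 0.363 FPKM. Its CPM were 1.87, 2.34 and 1.05 in NCD1 to NCD3 and 2.49, 2.17 and 3.01 in HFD1 to HFD3. The log2 fold change of *Acan* was 0.50 (standard error 0.47), with NCD2 above HFD2. At 0.363 FPKM against 48.5 FPKM for *Bcan* and 7.90 FPKM for *Ncan*, aggrecan RNA was a small part of lectican RNA in this tissue.

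Of the link proteins, *Hapln4* was the most abundant and spread widely within each diet, at 118, 75.1 and 60.0 CPM in NCD1 to NCD3 and 60.4, 100.4 and 43.5 CPM in HFD1 to HFD3. NCD1 and HFD2 were the high samples, and the log2 fold change was -0.31 (standard error 0.31). It ran from -0.70 without HFD2 (unadjusted p of 0.0373) to 0.0046 without NCD1 (unadjusted p of 0.988), and was 0.097 with the log2 of the total count as a covariate. *Hapln2*, the link protein of nodes of Ranvier, had 9.63, 12.3 and 11.1 CPM and 8.58, 10.2 and 7.53 CPM in the same order (log2 fold change -0.32, standard error 0.27), with HFD2 above NCD1. *Hapln1*, the link protein of cartilage and of nets, was low, at 57, 17 and 7 counts in NCD1 to NCD3 and 9, 23 and 9 in HFD1 to HFD3 (log2 fold change -0.34, standard error 0.54). *Hapln3* was below the count filter, at 15, 11 and 4 counts and 12, 7 and 8 counts.

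Each *Hapln* gene lies beside a lectican gene in the mouse genome. In GRCm38, *Hapln2* lies 21519 bases from *Bcan* on chromosome 3, *Hapln4* lies 2222 bases from *Ncan* on chromosome 8, *Hapln3* lies 2 bases from *Acan* on chromosome 7 and *Hapln1* lies 43659 bases from *Vcan* on chromosome 13. In 3 of the pairs the levels lay apart. *Hapln4* stood above *Ncan* (20.9 against 7.90 FPKM), *Hapln2* below *Bcan* (6.90 against 48.5 FPKM) and *Hapln1* below *Vcan* (0.332 against 2.14 FPKM). *Hapln3* and *Acan* were both low, at 0.478 and 0.363 FPKM.

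Among the enzymes that make hyaluronan, *Has1* was the one tested, at 2.65, 2.75 and 1.66 CPM in NCD1 to NCD3 and 2.61, 1.87 and 3.76 CPM in HFD1 to HFD3 (log2 fold change 0.17, standard error 0.46). *Has2* had from 2 to 29 counts in a sample and *Has3* from 2 to 7, and neither passed the filter. The receptors of hyaluronan and the enzymes that break it down, a list of 11 genes with 8 tested, had a median log2 fold change of 0.21 (6 higher and 2 lower, none with a p under 0.05), and *Hyal2*, a hyaluronidase, was the most abundant at 9.38 FPKM.

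Summed over the net genes, the level was 445, 423 and 376 CPM in NCD1 to NCD3 and 350, 373 and 365 CPM in HFD1 to HFD3. Every HFD sample lay below every NCD sample, with NCD3 and HFD2 close to each other. With library totals alone in place of TMM factors, the sums were 464, 418 and 363 CPM and 351, 361 and 375 CPM, and the diets overlapped. *Bcan*, *Hapln4* and *Tnr* made up most of these sums. The 7 oligodendrocyte markers, whose most abundant gene was *Mbp*, summed to 3324, 4777 and 3305 CPM in NCD1 to NCD3 and 2866, 4416 and 3519 CPM in HFD1 to HFD3. The 6 markers of oligodendrocyte precursors, which also make lecticans, summed to 229, 218 and 185 CPM and 171, 187 and 178 CPM, with *Lhfpl3* the most abundant. No marker of these lists was at 0, and their part in the net gene values was not tested. Of 16 genes of chondroitin sulfate synthesis and other brain proteoglycans, 15 were tested, with a median log2 fold change of -0.04 (6 higher and 9 lower). *Csgalnact2*, which starts chondroitin sulfate chains, was the gene of that list with a p under 0.05, at 26.5, 18.3 and 16.3 CPM in NCD and 12.9, 12.3 and 14.5 CPM in HFD (log2 fold change -0.63, standard error 0.25, unadjusted p of 0.0285). Without NCD1 it was at -0.40, and the p was 0.131, 0.0783 and 0.0718 without NCD1, HFD1 and HFD2, 0.0689 with the log2 of the total count as a covariate and 0.0697 in limma on log2(FPKM + 1). Of the 7 oligodendrocyte markers above, 2 were higher and 5 lower in HFD (median log2 fold change -0.22). Among them *Opalin* had a p under 0.05 (log2 fold change -0.88, unadjusted p of 0.02), and it was at -0.52 without NCD2, with a p of 0.157, 0.0881 and 0.0501 without NCD2, HFD1 and HFD3.

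**Figure D3:**
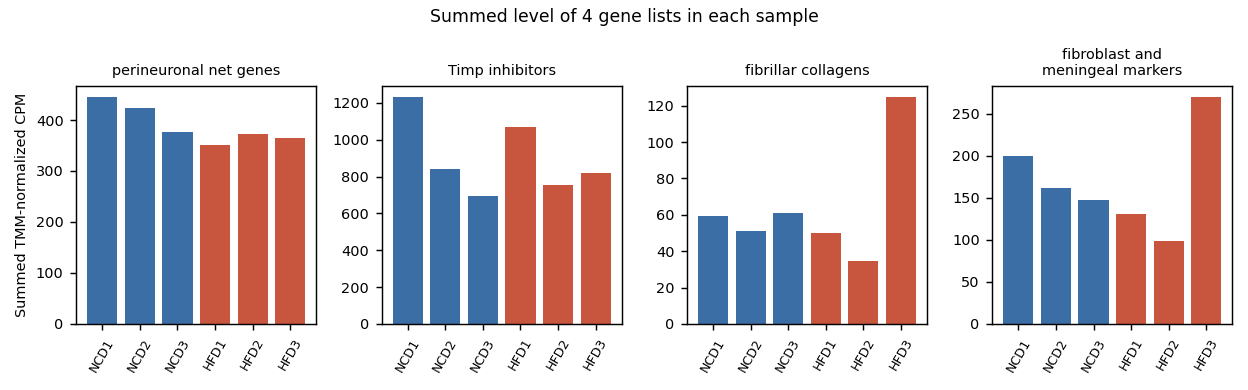
Summed TMM-normalized CPM of 4 gene lists in each of the 6 samples, one bar per sample, blue for NCD and red for HFD. Net genes lay between 350 and 373 CPM in HFD and between 376 and 445 CPM in NCD, whereas fibrillar collagens and fibroblast and meningeal markers were both highest in HFD3.

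Of the 44 collagen genes, 33 were tested, and 1 of them, *Col23a1*, had a p under 0.05. The median log2 fold change of the 33 was 0.18, with 22 higher and 11 lower in HFD. This direction rested on HFD3, which had the highest level for 23 of the 33 collagens. Without HFD3 the median was -0.19.

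The 11 fibrillar collagen genes, whose chains form the collagen fibres of connective tissue, were all tested and none passed. Their summed level was 59.2, 51.1 and 60.9 CPM in NCD1 to NCD3 and 49.8, 34.5 and 125 CPM in HFD1 to HFD3. HFD3 was the highest sample for 10 of the 11, while HFD1 and HFD2 lay below every NCD sample in the sum. *Col1a2*, a chain of type I collagen, had 16.8, 16.4 and 15.2 CPM in NCD and 10.2, 8.28 and 29.0 CPM in HFD (log2 fold change -0.06, standard error 0.39). Without HFD3, *Col1a2* was at -0.81 and *Col5a2*, a chain of type V collagen that starts fibrils, at -0.90, with p-values of 0.0109 and 0.0394 before adjustment.

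*Col11a1*, a chain of type XI collagen, had 10.7, 7.63 and 17.6 CPM in NCD and 13.2, 8.38 and 29.5 CPM in HFD (log2 fold change 0.50, standard error 0.43). *Col27a1* had 2.71, 3.26 and 7.52 CPM in NCD and 6.84, 3.84 and 16.9 CPM in HFD (log2 fold change 1.04, standard error 0.54, unadjusted p of 0.0762). Without HFD3 the log2 fold change of *Col27a1* was 0.28 (unadjusted p of 0.593), without NCD3 it was 1.6 (0.00946) and without HFD2 1.43 (0.0135), and with every gene of at least 1 count tested or with the replicate block the p was 0.0387 and 0.0175. With the log2 of the total count as a covariate it was 0.22 (unadjusted p of 0.565), and on the log2(FPKM + 1) scale 0.43 (unadjusted p of 0.182 in limma). The third sample was the highest of its diet for both genes, and the diets overlapped. The summed fibroblast and meningeal markers above, like the summed fibrillar collagens, were highest in HFD3 and lowest in HFD2. Within NCD the sums ran in different orders, with NCD3 the lowest for the markers (147 CPM) and the highest for the collagens (60.9 CPM). The part of these markers' cells in the collagen values was not tested. Of the 10 small leucine-rich proteoglycans, which bind collagen fibres, 9 were tested (4 higher and 5 lower, median log2 fold change -0.08), and the most abundant, *Dcn*, was at 85.6 CPM in HFD3 and between 23.9 and 36.9 CPM in the other samples.

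The collagens of basement membranes and networks were led by *Col4a1* (3.69 FPKM) and *Col4a2* (2.84 FPKM), which encode the chains of the type IV collagen of vessels. *Col4a1* had 19.7, 13.3 and 19.3 CPM in NCD and 19.3, 12.6 and 23.7 CPM in HFD, and *Col4a2* had 18.2, 17.6 and 14.4 CPM and 23.4, 12.5 and 23.3 CPM. In both genes HFD2 was the lowest sample, and the log2 fold changes were 0.08 (standard error 0.28) and 0.22 (standard error 0.27). These genes lie head to head on chromosome 8 of GRCm38 and share 22 bases. *Col4a3* and *Col4a4* also lie head to head, 71 bases apart on chromosome 1, at 0.220 and 0.268 FPKM, as do *Col4a5* and *Col4a6*, 1308 bases apart on chromosome X, at 1.56 and 0.178 FPKM. The log2 fold change of *Col4a4* was 0.59 (standard error 0.59), from 0.082 without HFD3 (unadjusted p of 0.901) to 1.09 without HFD2 (unadjusted p of 0.0428). *Col8a1*, a network collagen of vessel walls, was the tested collagen without overlap between the diets, at 4.64, 6.51 and 6.62 CPM in NCD and 8.33, 6.70 and 10.3 CPM in HFD. The gap between NCD3 and HFD2 was small, and the log2 fold change of 0.51 (standard error 0.32) did not reach a p of 0.05. The laminins, nidogens and proteoglycans of basement membranes, 15 genes that were all tested, had a median log2 fold change of -0.12 (5 higher, 10 lower, none with a p under 0.05), and *Agrn* was the most abundant at 7.62 FPKM.

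The beaded-filament chains *Col6a1* and *Col6a2* were at 5.12, 2.75 and 2.41 CPM and 5.06, 3.16 and 2.71 CPM in NCD, and at 3.11, 1.68 and 9.78 CPM and 2.49, 3.25 and 7.71 CPM in HFD. HFD3 was the highest sample for both, and their log2 fold changes of 0.41 and 0.24 were below 1 standard error. *Col26a1*, the third of that group by level, was at 0.24 in log2 fold change (standard error 0.46). *Col6a5* was at -0.19 (standard error 0.45), and its neighbours *Col6a4* and *Col6a6* on chromosome 9 were below the filter. The fibril-associated collagens, which coat fibrils or link them to other matrix, ranged from -0.54 to 0.42 in log2 fold change over the 7 tested of 9, and *Col9a3* was the most abundant at 3.02 FPKM. *Col16a1* was at 0.31 (standard error 0.41), and the neighbours *Col19a1* and *Col9a1* on chromosome 1 were at 0.42 (standard error 0.47) and -0.36 (standard error 0.56). Enzymes that modify, fold or crosslink collagen, a list of 21 with 19 tested, had a median log2 fold change of 0.08 (12 higher, 7 lower, none with a p under 0.05), and *P4hb* led them at 72.8 FPKM.

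The transmembrane collagens *Col25a1* and *Col23a1* were the most abundant collagens of the tissue. *Col25a1*, a collagen of neurons, had 106, 63.4 and 88.6 CPM in NCD and 72.5, 80.8 and 115 CPM in HFD (log2 fold change 0.06, standard error 0.24). *Col23a1* (chromosome 11, 51289920 to 51583918) had 34.7, 29.6 and 53.3 CPM in NCD and 62.1, 32.2 and 127 CPM in HFD. HFD3 was far above the rest, HFD1 was above every NCD sample and HFD2 was below NCD1. The means were 39.2 ± 12.4 CPM (NCD) and 73.7 ± 48.3 CPM (HFD), with SD over 3 samples (exact permutation test, two-sided, p = 0.3). The log2 fold change was 0.91 (standard error 0.40), and edgeR's quasi-likelihood test gave a p of 0.0406 before and 0.999 after adjustment. Without HFD3 it was 0.27 (unadjusted p of 0.432), and without NCD1 or NCD2 the p before adjustment was 0.105 and 0.143. With the log2 of the total count added as a covariate it was 0.28 (unadjusted p of 0.349), and limma on log2(FPKM + 1) gave 0.68 (unadjusted p of 0.113). It was 1.27 without HFD2 (unadjusted p of 0.00174), 1.19 without NCD3 (unadjusted p of 0.00964) and 0.75 with the replicate block (unadjusted p of 0.00272), and DESeq2 gave a p of 0.0187 before adjustment. *Col17a1*, the collagen of epithelial hemidesmosomes, was below the filter, with 1, 0 and 0 counts in NCD and 9, 5 and 5 counts in HFD. Pooled over each diet and set against the total counts, the ratio of HFD to NCD was 26.3 (exact 95% interval 4.18 to 1092, for counting error only), from 1 count in NCD. The diets thus did not overlap for this untested gene. *Col13a1* was below the filter as well, with 5, 4 and 9 counts in NCD and 0, 6 and 6 in HFD.

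The Adamts proteases held the largest difference between the diets among the members tested. *Adamts1* encodes a secreted protease that cuts aggrecan and versican (chromosome 16, 85793827 to 85803113, minus strand, GRCm38). Its raw counts were 402, 175 and 99 in NCD1 to NCD3 and 47, 58 and 44 in HFD1 to HFD3. Normalized, these were 24.2, 17.8 and 14.9 CPM in NCD and 5.84, 5.72 and 8.28 CPM in HFD, so every HFD sample lay below every NCD sample. The means were 19.0 ± 4.76 CPM (NCD) and 6.61 ± 1.44 CPM (HFD), with SD over 3 samples (exact permutation test, two-sided, p = 0.1, the smallest that 3 samples against 3 can give). The log2 fold change was -1.54 (standard error 0.29), and edgeR's quasi-likelihood test gave a p of 0.000155 before and 0.194 after Benjamini-Hochberg adjustment.

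The call on *Adamts1* turned on the processing, and its direction did not. The adjusted p was 0.00301 in DESeq2's Wald test on every gene with a count and 0.00144 on the genes tested in edgeR, 0.0384 in edgeR when every gene with at least 1 count was tested, and 0.0436 in edgeR without NCD3. Over all alternatives run, the adjusted p ranged from 0.00144 to 0.9997 (edgeR without HFD1), and the log2 fold change from -1.72 (without HFD3) to -1.02 on the log2(FPKM + 1) scale, which understates the change of low genes.

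*Adamts4*, which encodes another protease of aggrecan and brevican, lies on chromosome 1 from 171250421 to 171260637. It had 11.7, 11.8 and 10.8 CPM in NCD and 5.10, 10.2 and 4.89 CPM in HFD. The diets did not overlap, but HFD2 was close to the NCD samples (exact permutation test, two-sided, p = 0.1). The log2 fold change was -0.75 (standard error 0.33), with a p of 0.0412 before and 0.999 after adjustment in edgeR's quasi-likelihood test. Without NCD1, NCD2, HFD1 or HFD3 the p before adjustment was 0.0672, 0.0922, 0.155 and 0.115, with the log2 of the total count as a covariate it was 0.0723, and the log2 fold change lay between -1.20 (without HFD2) and -0.58 (without HFD1) when samples were left out. *Adamts4* is among the members that overlap another gene of the table, and no source says whether reads were counted by strand. *Adamts9*, a protease of versican, also had no overlap, at 7.83, 5.90 and 5.72 CPM in NCD and 4.85, 3.75 and 5.64 CPM in HFD, and its log2 fold change, -0.47 (standard error 0.34), did not reach a p of 0.05.

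The other Adamts genes went both ways. *Adamts2*, which removes the N-terminal propeptide of fibrillar procollagen, was the most abundant at 3.88 FPKM, with 24.9, 15.4 and 18.8 CPM in NCD and 22.6, 20.8 and 17.3 CPM in HFD (log2 fold change 0.04, standard error 0.25). *Adamts15* had 4.88, 2.34 and 2.56 CPM in NCD and 7.33, 4.63 and 3.95 CPM in HFD (log2 fold change 0.68, standard error 0.42), and NCD1 lay above HFD2 and HFD3. With samples left out, the log2 fold change of *Adamts15* ran from 0.38 without HFD1 (unadjusted p of 0.469) to 1.11 without NCD1 (unadjusted p of 0.0337). It was 1.03 with the log2 of the total count as a covariate (unadjusted p of 0.0341) and 0.29 on the log2(FPKM + 1) scale. *Adamts8*, its neighbour on chromosome 9, was at 0.50 (standard error 0.47), and *Adamts10*, an abundant gene of the group at 3.23 FPKM, at 0.21 (standard error 0.35). *Adamts5*, the neighbour of *Adamts1* on chromosome 16 at a distance of 53059 bases and an aggrecan protease as well, had 3.43, 2.95 and 5.72 CPM in NCD and 2.11, 3.06 and 3.76 CPM in HFD (log2 fold change -0.43, standard error 0.43). Of the 14 tested, 7 were higher and 7 lower in HFD, with a median log2 fold change of -0.01. *Adamts14*, named here after its values were seen, was below the filter with 5, 9 and 0 counts in NCD and none in HFD. Of its 14 counts 9 came from NCD2, and pooled over each diet the ratio of HFD to NCD had an exact 95% upper bound of 0.417, for counting error only. The 4 tested Adamts-like genes, which lack the protease domain, lay between -0.28 and 0.06 in log2 fold change, among them *Adamtsl2* (0.06, standard error 0.36) and *Adamtsl4* (-0.25, standard error 0.37), and the most abundant, *Adamtsl1*, shares 125024 bases with *Sh3gl2* on the same strand.

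**Figure D4:**
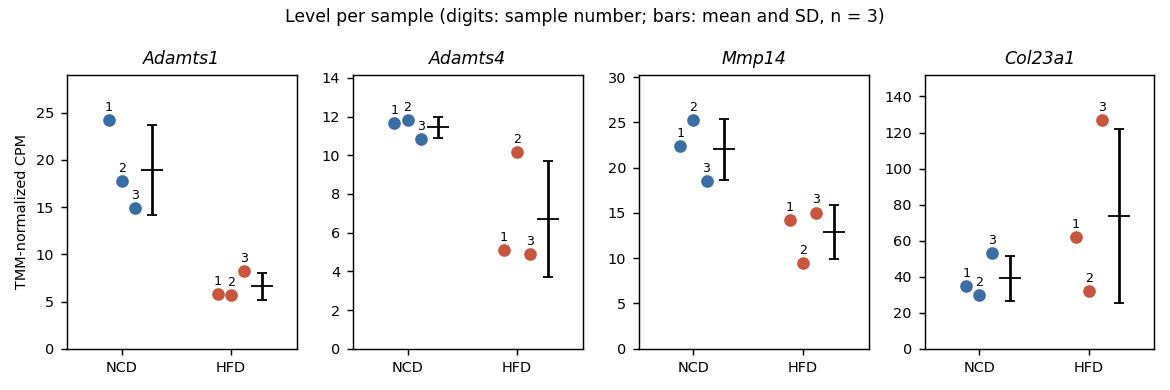
TMM-normalized CPM of *Adamts1*, *Adamts4*, *Mmp14* and *Col23a1* in each sample (digits are sample numbers), with the mean and SD of the 3 samples of each diet, on linear axes from 0. All HFD samples lie below all NCD samples for the first 3 genes, and HFD3 at 127 CPM sets the HFD mean of *Col23a1*.

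The most abundant Mmp genes of the ARC were the membrane-type *Mmp16*, *Mmp17* and *Mmp14*, and *Mmp14* was the member of this group with a p under 0.05. *Mmp14* encodes MT1-MMP, which cuts pericellular collagen and activates pro-Mmp2 together with Timp2 (chromosome 14, 54431612 to 54445364, plus strand). It had 22.4, 25.2 and 18.5 CPM in NCD and 14.2, 9.46 and 15.1 CPM in HFD. All HFD samples lay below all NCD samples, and the means were 22.0 ± 3.38 CPM (NCD) and 12.9 ± 3.004 CPM (HFD), with SD over 3 samples (exact permutation test, two-sided, p = 0.1). The log2 fold change was -0.79 (standard error 0.26), with a p of 0.00963 before and 0.999 after adjustment in edgeR's quasi-likelihood test, and it lay between -0.91 and -0.60 in the alternatives run, all with a p under 0.05 before adjustment.

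The remaining membrane-type genes showed no such gap. *Mmp16* had 53.0, 39.1 and 39.0 CPM in NCD and 37.7, 33.2 and 43.8 CPM in HFD (log2 fold change -0.20, standard error 0.21). *Mmp17*, whose enzyme is held by a lipid anchor, had 48.5, 44.9 and 43.2 CPM and 53.3, 39.3 and 62.8 CPM (log2 fold change 0.18, standard error 0.22). *Mmp15* stayed between 12.3 and 13.5 CPM in all 6 samples (log2 fold change -0.02, standard error 0.24).

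Secreted metalloproteinases were scarce. Of 17 genes, 4 were tested and 8 had no count at all (*Mmp1a*, *Mmp1b*, *Mmp7*, *Mmp8*, *Mmp12*, *Mmp13*, *Mmp20* and *Mmp27*), which allows up to 0.188 CPM in the deepest and 0.580 CPM in the shallowest library. All 8 lie on chromosome 9. *Mmp11*, stromelysin 3, was the most abundant at 3.94 FPKM, with 4.15, 3.77 and 5.72 CPM in NCD and 2.49, 2.46 and 4.70 CPM in HFD (log2 fold change -0.52, standard error 0.41). HFD3 lay between the NCD samples, and 3367 bases of *Mmp11* overlap *Chchd10*, a gene on the opposite strand at 413 FPKM. The gelatinase *Mmp2* had 2.83, 5.19 and 1.35 CPM in NCD and 2.49, 1.18 and 3.39 CPM in HFD (log2 fold change -0.47, standard error 0.56). *Mmp9*, the other gelatinase, had 25, 8 and 6 counts in NCD and 13, 17 and 0 counts in HFD (log2 fold change 0.09, standard error 0.74), so neither showed a difference detectable at this depth. *Mmp23* had from 8 to 19 counts in a sample (log2 fold change 0.29, standard error 0.53). Over the 23 tested Adamts and Mmp proteases the median log2 fold change was -0.02, with 11 higher and 12 lower.

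The 250 bases before the RefSeq start sites of the tested members at the study's threshold are shown for the genes that have a window in the RefSeq table of GRCm38.p6, because these are the members the comparison turned on. The sequences run from 5′ to 3′ on the strand of the gene, in lower case, with the letters of any motif searched in capitals. *Adamts1* is on the minus strand (chr16:85803114-85803363), *Mmp14* on the plus strand (chr14:54431348-54431597) and *Col23a1* on the plus strand (chr11:51289670-51289919). *Adamts4* had no window.
Adamts1: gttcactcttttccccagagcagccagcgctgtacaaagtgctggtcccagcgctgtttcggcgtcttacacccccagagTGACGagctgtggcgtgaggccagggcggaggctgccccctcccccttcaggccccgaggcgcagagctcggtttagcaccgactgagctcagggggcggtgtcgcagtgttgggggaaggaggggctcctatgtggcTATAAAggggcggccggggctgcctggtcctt
Mmp14: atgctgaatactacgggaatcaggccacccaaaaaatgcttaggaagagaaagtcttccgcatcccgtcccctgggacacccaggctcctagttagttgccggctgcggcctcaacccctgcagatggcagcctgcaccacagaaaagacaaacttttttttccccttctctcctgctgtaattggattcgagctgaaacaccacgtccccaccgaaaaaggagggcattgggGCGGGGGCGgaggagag
Col23a1: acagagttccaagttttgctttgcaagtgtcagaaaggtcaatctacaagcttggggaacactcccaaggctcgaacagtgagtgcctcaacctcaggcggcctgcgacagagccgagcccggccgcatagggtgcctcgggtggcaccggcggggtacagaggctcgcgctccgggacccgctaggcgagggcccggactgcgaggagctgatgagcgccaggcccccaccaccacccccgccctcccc

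The motifs were read on both strands of the RefSeq windows, which run from 250 bases before to 50 bases after a start, for 27025 genes, 80 of them members. The letters TGACG, the core of the CREB site, stood 170 bases before the start of *Adamts1* and were held by 12 of the 80 members (15.0%) and by 23.0% of all genes. The full site TGACGTCA, which contains TGACG, was held by 2.5% of the members (*Col24a1* and *Has1*) and by 2.03% of all genes. TATAAA stood 32 bases before the start of *Adamts1*, and 23.8% of the members and 15.7% of all genes held it. GCGGGGGCG, a form of the EGR motif added after the windows had been read, stood 17 bases before the start of *Mmp14* and was held by 5 members (6.25%) and by 3.31% of all genes. GCGTGGGCG, the usual EGR motif, and a CArG form of the SRF motif were in no member's window and in 0.707% and 0.0777% of all genes. TGACTCA, the AP-1 motif, was held by 8 of the 80 members and by 5.95% of all genes. Of these 8, *Col6a1* was the tested one, and the rest were secreted Mmp genes (*Mmp1a*, *Mmp1b*, *Mmp3*, *Mmp7*, *Mmp10*, *Mmp12* and *Mmp13*). A match describes the letters of a window and is not a site in use.

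Markers of vessel, glial and neuronal cells were set beside the proteases, which several of these cells make. The 8 endothelial markers, with *Ly6c1* the most abundant, summed to 208, 214 and 180 CPM in NCD1 to NCD3 and 216, 218 and 218 CPM in HFD1 to HFD3. In that list *Ly6c1* was higher in HFD (log2 fold change 0.81, unadjusted p of 0.00433) and *Cldn5*, a tight junction gene, lower (-0.48, unadjusted p of 0.0406). The 9 markers of pericytes and smooth muscle, led by *Vtn*, summed to 295, 285 and 229 CPM and 247, 275 and 228 CPM. In that list 8 of 9 were lower in HFD, and the contractile genes *Acta2* (log2 fold change -0.83) and *Tagln* (-1.05) had p-values of 0.0107 and 0.0192 before adjustment. Without HFD1 these p-values were 0.0645 and 0.0935, without NCD1 that of *Tagln* was 0.06, and that of *Cldn5* was 0.129, 0.0997 and 0.126 without NCD2, HFD1 and HFD3. The 7 astrocyte markers, led by *Aldoc*, summed to 3365, 3549 and 2665 CPM and 3696, 3613 and 2520 CPM. In that list 3 were higher and 4 lower in HFD, with a median log2 fold change of -0.12. *Gfap*, the filament gene of reactive astrocytes, was on the higher side (log2 fold change 0.88, unadjusted p of 0.0275). Its log2 fold change was 0.56 without NCD3, and the p was 0.0725, 0.126 and 0.0529 without NCD3, HFD1 and HFD2. The 6 markers of tanycytes, the ependymal cells beside the ARC, were led by *Gpr50* and summed to 94.5, 65.3 and 105 CPM in NCD1 to NCD3 and 151, 74.4 and 150.1 CPM in HFD1 to HFD3. All 6 were on the higher side in HFD (median log2 fold change 0.44), and *Crym* had a p under 0.05 (log2 fold change 0.89, unadjusted p of 0.0121), though not without NCD2 (0.0633) or HFD1 (0.0545). The 6 pan-neuronal markers, led by *Snap25*, summed to 3297, 3516 and 3423 CPM and 3016, 3487 and 2959 CPM. Of the 8 arcuate neuron genes, 6 were higher and 2 lower in HFD (median log2 fold change 0.43). Among them *Cartpt*, the most abundant, and *Tac2* were higher in HFD with a p under 0.05 (log2 fold changes 0.75 and 0.60, unadjusted p of 0.0116 and 0.0422). The p of *Tac2* was 0.152, 0.088, 0.189 and 0.104 without NCD1, NCD2, HFD1 and HFD3. With the log2 of the total count as a covariate the p of *Cldn5* was 0.0506 and that of *Tac2* 0.098, and in limma on log2(FPKM + 1) that of *Tagln* was 0.0593. None of these genes passed after adjustment in edgeR with diet as the only term, and with the total count as a covariate *Gfap* did (log2 fold change 1.35, adjusted p = 0.0453 in edgeR). Apart from *Kiss1*, none of these markers was at 0 in a sample, and their part in the values of *Adamts1*, *Adamts4* and *Mmp14* was not tested.

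The Timp genes encode the inhibitors that the proteases meet in the tissue, and all 4 were tested with no p under 0.05. *Timp2* had 877, 511 and 425 CPM in NCD and 755, 449 and 507 CPM in HFD, so that NCD1 and HFD1 were the high samples (log2 fold change -0.08, standard error 0.30). *Timp3*, an inhibitor bound to the matrix that also blocks Adamts proteases, had 294, 245 and 204 CPM and 227, 221 and 247 CPM (log2 fold change -0.10, standard error 0.21). *Timp4* had 60.1, 85.0 and 65.0 CPM and 83.1, 84.9 and 64.0 CPM (log2 fold change 0.15, standard error 0.21). The diets overlapped in all 3, and the summed level of the inhibitors was 1232, 842 and 695 CPM in NCD and 1068, 756 and 819 CPM in HFD.

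*Timp1*, the inhibitor that glia make on injury or inflammation, was low, with 8, 17 and 5 counts in NCD and 24, 12 and 10 counts in HFD. Normalized, it was at 0.482, 1.73 and 0.752 CPM in NCD and 2.98, 1.18 and 1.88 CPM in HFD. NCD2 lay above HFD2, and the log2 fold change of 1.04 (standard error 0.62) had a p of 0.119 before adjustment. It ran from 0.62 without HFD1 (unadjusted p of 0.443) to 1.74 without NCD2 (unadjusted p of 0.0388), and was 0.63 without NCD1. The body of 3 Timp genes lies inside a synapsin gene on the opposite strand. *Timp1* lies in *Syn1* (91.2 FPKM), *Timp3* in *Syn3* (3.10 FPKM) and *Timp4* in *Syn2* (135 FPKM), so without strand the reads of *Timp1* and *Timp4* cannot be told apart from those of a far more abundant host where exons overlap. In all, 20 of the 107 members overlap another gene of the table.

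Other matrix genes around the members gave few differences. Of 16 matricellular and adhesive glycoproteins, 14 were tested (9 higher, 5 lower, median log2 fold change 0.07), and *Sparc*, the most abundant at 1249 FPKM, was at 0.05 in log2 fold change (standard error 0.24). *Ccn1*, a secreted protein that binds integrins, was the gene of that list with a p under 0.05, at 10.9, 11.3 and 7.52 CPM in NCD and 4.85, 5.22 and 6.96 CPM in HFD. Its log2 fold change was -0.82 (standard error 0.31, a p of 0.0209 before and 0.999 after adjustment in edgeR's quasi-likelihood test), and the p before adjustment was 0.078, 0.0829 and 0.0568 without NCD2, HFD1 and HFD2. Of 19 integrin subunits, 16 were tested (4 higher, 12 lower, median log2 fold change -0.17). *Itga9*, a receptor subunit for tenascin, was on the higher side, at 2.23, 2.14 and 2.56 CPM in NCD and 4.23, 2.96 and 7.15 CPM in HFD, with no overlap and HFD3 again the highest (log2 fold change 1.03, standard error 0.43, a p of 0.035 before and 0.999 after adjustment in edgeR's quasi-likelihood test). Without HFD3 the log2 fold change of *Itga9* was 0.64 (unadjusted p of 0.175), and the p was 0.0793, 0.0898 and 0.0582 without NCD1, NCD2 and HFD1. With the log2 of the total count as a covariate it was 0.66 (unadjusted p of 0.175), and on the log2(FPKM + 1) scale 0.38 (unadjusted p of 0.106 in limma). *Itgav* was the most abundant at 62.7 FPKM. Other extracellular proteases and their inhibitors, 14 genes with 10 tested, had a median log2 fold change of -0.19 (4 higher, 6 lower, none with a p under 0.05), and *Serpine2*, an inhibitor of thrombin and plasminogen activators, was the most abundant at 195 FPKM.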

How the data were processed

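RNA-seq was done on 6 ARC samples, 3 per diet. According to the methods, the authors matched reads to ribosomal RNA with bowtie2 and to the genome with HISAT2 and derived values per gene with StringTie and RSEM (versions not given in the sources used here). Their differentially expressed genes came from DESeq2. The submitters' processing notes name mm10. The deposited table holds each gene's read count per sample, not normalized, and the authors' FPKM per sample and mean FPKM per diet. It also holds the authors' own log2 fold change, p-value and FDR, which were not used. The sample titles give C or H and a number, read as NCD and HFD from the study's 2 diets. The table's mean columns, named for the diets, equal the means of those samples' FPKM to rounding.

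Identifiers were matched to GENCODE M21 (GRCm38), and 22267 of 22322 had a symbol. The counts were filtered with filterByExpr (14188 genes left), normalized with TMM (factors 0.967 to 1.04) and fitted with edgeR's quasi-likelihood test with diet as the only term. The biological coefficient of variation was 0.244. Single values of log2 CPM were put to exact permutation tests (two-sided) with a prior count of 2. Precision follows the total counts (5171381 to 15925648), and floors and intervals cover counting error only. The fits were tested on simulated counts. Genes named were the net genes, the Timp genes, members with a p under 0.05 or among the study's differentially expressed genes, the 3 most abundant of each role, neighbouring pairs, from each pathway list the most abundant gene and those with a p under 0.05, and marker lists as sums with their most abundant gene. *Adamts9*, *Col8a1*, *Col27a1*, *Mmp9*, *Mmp15*, *Adamts14*, *Acta2*, *Tagln*, *Cldn5*, *Gfap*, *Opalin*, *Crym* and *Tac2* were added after their values were seen. The members and lists were chosen with earlier results of these data known. Alternatives were DESeq2 (on every gene with a count and, chosen after seeing the data, on the genes tested in edgeR), library totals alone, RLE size factors, other count filters, limma with trend on log2(FPKM + 1) or log2(FPKM + 0.1) where the mean FPKM reached 0.5, the log2 total count as a covariate, a replicate block and each sample left out. Protein sequences were not used here. One marker list and one gene that overlaps a member are not reported here. The versions were edgeR 4.0.16, DESeq2 1.42.0, limma 3.58.1 and R 4.3.3, and Python 3.11.15 with pandas 2.3.3, scipy 1.17.1 and matplotlib 3.10.9.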

Additional observations from a re-analysis of the deposited data

How the results depend on the processing

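The 4 members at the study's threshold and 0 after adjustment in edgeR became 7 and 1 when every gene with at least 1 count was tested (*Col17a1*, *Col27a1* and *Adamts14* were added), 5 and 1 in DESeq2 on those same 18177 genes (*Col17a1* was added), 5 and 1 in DESeq2 on the 14188 genes of the edgeR test (*Col27a1* was added; an alternative chosen after seeing the data), 5 and 1 with a block for the replicate number, and 2 and 0 in limma on log2(FPKM + 1). Leaving out samples in turn gave from 3 to 7 and from 0 to 1. The adjusted call was *Adamts1* each time, with the lone 1 among left-out samples coming without NCD3, and its log2 fold change with the block was -1.53 (adjusted p = 0.0334). Over all genes the study's threshold gave 270 in edgeR, 427 with at least 1 count, 179 with a mean of at least 50 counts, and from 195 to 982 with a sample left out; after adjustment 8 became 15 in edgeR on the 18177 genes, 19 in DESeq2 on those and 19 in DESeq2 on the 14188, 15 with the total count as a covariate, 17 with the block, 5 in limma, and 1 to 16 with a sample left out. Replicate numbers were not taken to pair samples. Deviations from the diet means correlated at -0.0116, 0.113 and 0.369 for same-numbered samples and from -0.385 to 0.311 for differently numbered ones. With 3 samples per diet, these correlations cannot settle whether samples were paired. Direction turned for the genes below, and the cause was not tested. On log2(FPKM + 1) these were *Tnr* (0.016), *Vcan* (-0.040), *Timp4* (-0.0037), *Col25a1* (-0.024), *Mmp11* (0.010) and *Col4a1* (-0.16). On log2(FPKM + 0.1) they were *Tnr* (0.018), *Vcan* (-0.048), *Timp4* (-0.0033), *Col25a1* (-0.027) and *Col4a1* (-0.19). With the log2 of the total count as covariate they were *Hapln4* (0.097), *Vcan* (-0.17), *Hapln1* (0.21), *Timp2* (0.23), *Col4a1* (-0.080), *Col11a1* (-0.098), *Col4a4* (-0.019) and *Col6a5* (0.21), and the collagen median was -0.019. Log2 fold changes that turned when samples were left out ran from -0.70 to 0.0046 for *Hapln4*, -0.17 to 0.39 for *Vcan*, -0.097 to 0.40 for *Has1*, -0.64 to 0.26 for *Hapln1*, -0.34 to 0.28 for *Timp2*, -0.22 to 0.031 for *Timp3*, -0.17 to 0.22 for *Col25a1*, -0.80 to 0.083 for *Mmp2*, -0.11 to 0.24 for *Adamts2*, -0.11 to 0.53 for *Adamts10*, -0.13 to 0.29 for *Col4a1*, -0.81 to 0.26 for *Col1a2*, -0.14 to 0.87 for *Col11a1*, -0.90 to 0.32 for *Col5a2*, -0.51 to 0.13 for *Col9a3*, -0.15 to 0.68 for *Col16a1*, -0.083 to 0.90 for *Col19a1*, -0.15 to 0.23 for *Adamtsl2*, -0.36 to 0.55 for *Col6a2*, -0.56 to 0.84 for *Col6a1*, -0.52 to 0.14 for *Col6a5*, -0.46 to 0.81 for *Col3a1* -0.38 to 0.089 for *Col4a3*, -0.31 to 0.57 for *Mmp9* (-0.026 with the block), -0.064 to 0.019 for *Mmp15* and -0.10 to 0.23 for *Sparc*. The collagen median ran from -0.19 without HFD3 to 0.36 without HFD2. RLE size factors and library totals alone turned no named member. Members at a few counts, such as *Hapln1*, *Timp1* and most secreted Mmp genes, are limited by depth.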
